A study of Homo sapiens with 8 samples.

Results

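The GABA-A receptor is the chloride channel that opens when it binds the neurotransmitter GABA, and 7 of its subunit genes (GABRA2, GABRA3, GABRA4, GABRA5, GABRB1, GABRB2 and GABRG3) were followed in medulloblastoma cells with and without inhibition of MYC. They were chosen by gene symbol and were found by Ensembl identifier through GENCODE, 1 row each, among 60668 genes listed and 16 GABA-A subunit genes considered here. The cells were D283-OMO, made from D283 MED, a medulloblastoma line with features of the Group 3 and Group 4 subgroups, by lentiviral transfer of a doxycycline (DOX)-inducible, FLAG-tagged OMOMYC and drug selection. OMOMYC is a mini-protein derived from MYC that acts as its dominant negative. The question was which transcripts respond when MYC function is blocked. PolyA+ RNA was sequenced from 4 libraries of untreated cells (OMO) and 4 libraries of cells given DOX for 72 h (OMO+DOX), and both groups carry the transgene. The study's methods describe the replicates as independent biological ones. DOX-treated cells without the transgene were not analysed here, so OMOMYC and DOX itself cannot be told apart in these libraries, and the labels do not say whether the line is a single clone.

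Each GABA-A receptor is a ring of 5 subunits, most often alpha, beta and gamma together. The alpha and beta subunits form the GABA site between them, the gamma subunit forms the benzodiazepine site with an alpha subunit and helps to hold the receptor at synapses, and the choice of alpha subunit sets where the receptor sits and how it responds. GABRA5 encodes the alpha subunit known for receptors outside synapses and for tonic inhibition, and its RNA is a marker of Group 3 medulloblastoma. Most subunit genes stand in clusters in the genome.

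Total expected counts ranged from 38390696 to 54020506 per library, and 3 counts, taken as the detection floor, corresponded to between 0.0555 and 0.0781 CPM (counts per 1000000 counts of the library). This floor covers counting error only. Of the 60668 genes, 15222 had more than 1 CPM in at least 4 libraries and were tested. Of these, 11661 had an adjusted p below 0.05, and 1084 were differentially expressed, taken as an FDR below 0.001 and an absolute log2 fold change (log2FC) above 2. The FDR threshold is stated in more than 1 way in the study's text and the strictest was used here, while an FDR below 0.01 gave 1085 genes. MYC itself was at 939 ± 75.6 CPM in OMO and 1123 ± 56.8 CPM in OMO+DOX (SD, n = 4), and transgene reads could not be told apart from it. CAD and NCL, known targets that MYC activates, fell by 0.48 and 0.44 on the log2 scale. Of 12 marker genes of glial, immune, vascular, fibroblast and blood cells, only COL1A1 passed the expression filter, MOG and HBB had no count in any library, and the summed level of the list was 22.7 to 23.9 CPM in OMO and 21.99 to 25.9 CPM in OMO+DOX. Nearly all of this sum was COL1A1, and without it the sum was 0.843 to 1.38 CPM in OMO and 0.804 to 1.21 CPM in OMO+DOX. At these low levels, 5 of the 12 markers did not overlap between the groups, beside 71.7% of all genes tested. COL3A1, AQP4, AIF1 and MBP were higher with DOX, COL3A1 from 0.0051 to 0.335 mean CPM, and CLDN5 was lower, from 0.449 to 0.114 mean CPM. Their part in the results below was not tested.

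GABRA5 was the most abundant member and fell, while GABRA2, GABRA3, GABRB2 and GABRG3 rose. GABRA4 and GABRB1 stayed below the expression filter and were not tested with the rest. All 5 tested members had an adjusted p below 0.05, against 76.6% of all genes tested. The 4 that rose compare with 38.5% of all genes rising and the 1 that fell with 38.1% falling, so passing this test was the common case in these libraries. No tested member had overlapping groups, as held for 71.7% of all genes. GABRG3 alone met the thresholds for differential expression, which 7.12% of all genes met, 4.38% as rises and 2.75% as falls. The median log2FC of the 5 tested members was 0.64, beside 0.012 over all genes.

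The promoters are shown here because MYC, paired with MAX, binds E-boxes, of which CACGTG is its preferred form and CANNTG the general one. Promoter windows of 250 bases before to 50 bases after the start were taken from RefSeq (GRCh38.p14), which held 16 windows for 13 of these 16 subunit genes and 7 windows for 5 of the 7 members. GABRA3 and GABRA5 had no entry. None of the 16 windows held CACGTG, which reads the same on both strands and occurred in 7.26% of 35116 promoter windows. CANNTG, of which CACGTG is 1 form, occurred in 12 of the 16 windows, beside 68.7% of all windows, and in 10 of the 13 genes, beside 73.1% of all genes with a window. The lines below give 4 CANNTG matches in members that rose with DOX or, for GABRB1, did not overlap between the groups, with up to 10 bases on each side, 5′ to 3′ on the strand of the gene, and the capitals mark the E-box. A match is only a match of letters. The starts are those of the windows. The window of GABRG3 ends at base 26971230, before the gene start of 26971282 in GENCODE 29, and was not found in GENCODE 29 transcripts.
GABRG3, chr15:26971152-26971177, plus strand, 19 bases before the start: gacagccgccCAGCTGcccccacctc
GABRA2, chr4:46389509-46389534, minus strand, 115 bases before a start: aaatccaggaCACCTGctcggcagca
GABRA2, chr4:46389065-46389090, minus strand, 45 bases before another start: attccctttcCAGCTGctatgccagt
GABRB1, chr4:47031374-47031399, plus strand, 183 bases before the start: actccgtttaCACATGctcgtaggat
GABRA2 also held CAGCTG 23 bases after a start, and GABRA4 held CACTTG 249 bases before its start. The single window of GABRB2 held neither motif, so members that rose stood on both sides of this division.

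Among the alpha subunits, GABRA5 (ENSG00000186297.12, chromosome 15, 26866363 to 26949207, plus strand, GRCh38) gave 60.3, 58.5, 59.1 and 57.6 CPM in the OMO libraries and 16.6, 16.9, 18.2 and 18.5 CPM in the OMO+DOX libraries. The lowest untreated library stood far above the highest treated one, and the spread within either group was small. These values rest on 2572 to 3022 counts per library in OMO and 679 to 929 in OMO+DOX. The mean was 58.9 ± 1.13 CPM in OMO and 17.5 ± 0.909 CPM in OMO+DOX (SD, n = 4). GABRA5 was thus 3.36-fold lower with DOX, with a log2FC of -1.75 (standard error 0.05, Benjamini-Hochberg adjusted p = 3.91e-11 by edgeR quasi-likelihood F test). Counted from the largest fall, GABRA5 ranked 563 among the 15222 genes. In bulk RNA, fewer cells expressing a gene and less of its RNA per cell cannot be told apart, here and in the results that follow.

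GABRA2 (ENSG00000151834.15, chromosome 4, 46248427 to 46475230, minus strand) encodes an alpha subunit enriched at the axon initial segment of neurons. It gave 2.67, 2.77, 2.22 and 2.85 CPM in OMO and 6.76, 6.75, 6.57 and 5.42 CPM in OMO+DOX. Every treated library was above every untreated one, and the treated replicate 4 lay below the other treated libraries. The log2FC was 1.28 (standard error 0.11, Benjamini-Hochberg adjusted p = 5.98e-07 by edgeR quasi-likelihood F test), a 2.43-fold rise of the mean on 109 to 143 counts per library in OMO and 246 to 343 in OMO+DOX.

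GABRA3 (ENSG00000011677.13, chromosome X, 152166234 to 152451358, minus strand) was the second most abundant member per kilobase of exon in both groups. Its values were 8.51, 7.57, 7.79 and 7.42 CPM in OMO and 10.02, 9.20, 9.87 and 10.8 CPM in OMO+DOX. The groups came close but did not overlap. The rise, 1.28-fold on mean CPM, was the smallest among the tested members, with a log2FC of 0.35 (standard error 0.07, Benjamini-Hochberg adjusted p = 0.000945 by edgeR quasi-likelihood F test).

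GABRA4 (ENSG00000109158.11, chromosome 4, 46918900 to 46994407, minus strand) encodes an alpha subunit of receptors outside synapses, often found with the delta subunit. It gave 1, 1, 2 and 0 counts in the OMO libraries and 3, 6, 3 and 0 counts in the OMO+DOX libraries. All untreated libraries were at or under the floor, as were 3 treated ones, and the groups overlapped, so no fold is given. The mean was 0.0201 ± 0.0166 CPM in OMO and 0.0668 ± 0.0617 CPM in OMO+DOX (SD, n = 4; two-sided exact permutation test, p = 0.257). A difference was not detectable at this depth.

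The beta subunits GABRB1 and GABRB2 were both higher with DOX. GABRB2 (ENSG00000145864.12, chromosome 5, 161288429 to 161549044, minus strand) encodes the beta subunit common in adult synaptic receptors and gave 7.41, 6.68, 4.80 and 6.59 CPM in OMO against 9.98, 10.6, 9.62 and 9.44 CPM in OMO+DOX. The untreated replicate 3 was the lowest of all, and the groups did not overlap. The log2FC was 0.64 (standard error 0.11, Benjamini-Hochberg adjusted p = 0.000309 by edgeR quasi-likelihood F test), a 1.56-fold rise of the mean.

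GABRB1 (ENSG00000163288.14, chromosome 4, 46993723 to 47426444, plus strand) was counted 3, 2, 2 and 6 times in the OMO libraries and 18, 9, 19 and 9 times in the OMO+DOX libraries. Of the untreated libraries 3 were at or under the floor, all treated libraries were above it, and the groups did not overlap. The mean was 0.0688 ± 0.0450 CPM in OMO and 0.287 ± 0.0886 CPM in OMO+DOX (SD, n = 4), a ratio of 4.18 between very low levels. With 4 libraries a group, no two-sided exact permutation p can be smaller than 0.0286, and GABRB1 reached this value. The 5′ ends of GABRA4 and GABRB1 overlap on opposite strands over 685 bases, 204 of them exonic in both genes. The study's library kit was a stranded one, and both genes had whole-number counts in every library. Whether the counting used strand is not stated, so reads there may belong to either gene.

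The gamma subunit GABRG3 had the largest change among the members. The gene (ENSG00000182256.13, chromosome 15, 26971282 to 27541991, plus strand) gave 1.37, 0.968, 1.16 and 1.32 CPM in OMO and 8.10, 7.28, 7.94 and 7.51 CPM in OMO+DOX. The untreated libraries were close to the filter of 1 CPM, 3 of them above it, and all treated libraries stood well apart from them. Counts rose from 50 to 67 per library in OMO to between 292 and 411 in OMO+DOX. The mean was 6.40-fold higher with DOX, a log2FC of 2.68 (standard error 0.11, Benjamini-Hochberg adjusted p = 1.05e-09 by edgeR quasi-likelihood F test), and GABRG3 ranked 449 from the largest rise among all genes tested.

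**Figure D1:**
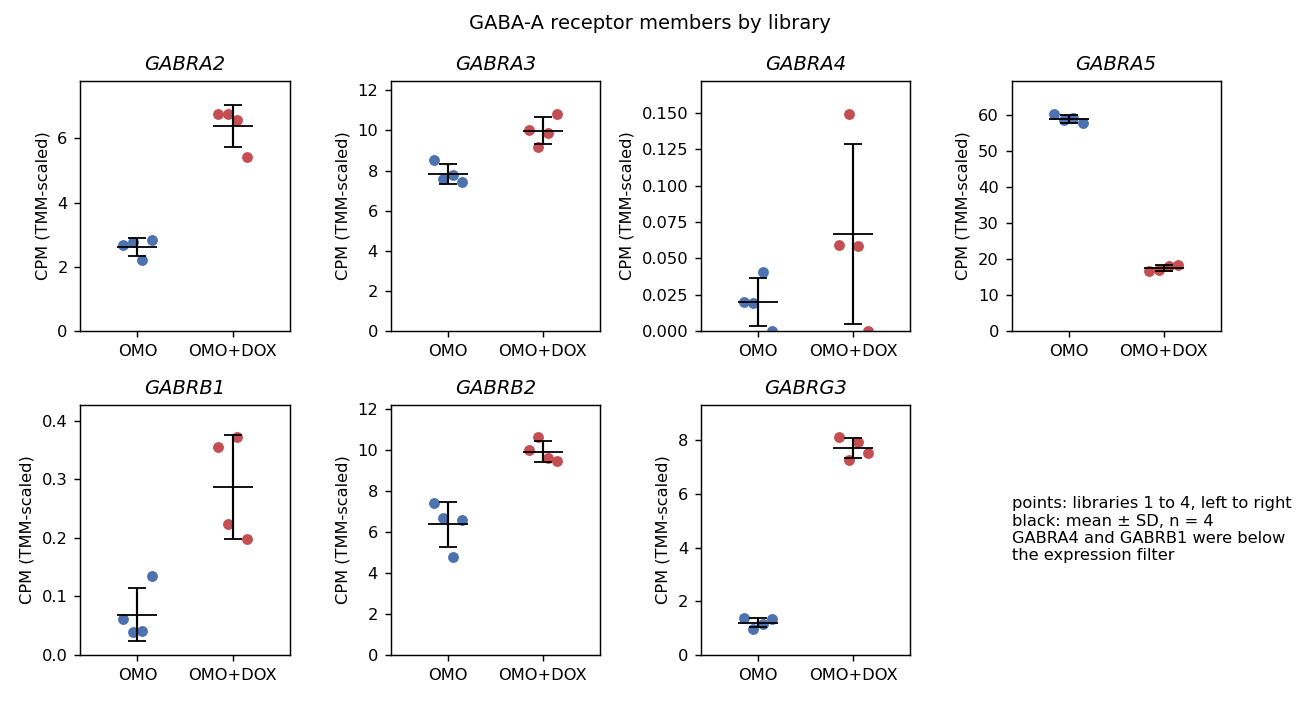
Level of each of the 7 members in the 4 untreated (OMO) and 4 DOX-treated (OMO+DOX) libraries, as TMM-scaled CPM on a linear axis from 0 that differs between panels; points are libraries and black marks are the mean ± SD. GABRA5 drops from 58.9 to 17.5 CPM, the other tested members rise, and GABRA4 and GABRB1 stay under 1 CPM.

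Levels of different genes were compared per kilobase of exon, taking all annotated exons of a gene as its length. In OMO the members stood in the order GABRA5 at 14.2 ± 0.271, GABRA3 at 1.86 ± 0.115, GABRB2 at 0.637 ± 0.111, GABRA2 at 0.220 ± 0.0237, GABRG3 at 0.0956 ± 0.0144, GABRB1 at 0.0219 ± 0.0143 and GABRA4 at 0.00166 ± 0.00137 CPM per kilobase (SD, n = 4). In OMO+DOX the order was the same except that GABRG3, at 0.612 ± 0.0302, stood above GABRA2, at 0.534 ± 0.0541 CPM per kilobase. Neighbours in either order did not overlap in any library. The order of close neighbours depends on the length used: over the transcript with the longest coding part, GABRA2 stood above GABRB2 in OMO and above GABRA3 and GABRG3 in OMO+DOX.

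As a share of the summed level per kilobase of GABRA2, GABRA3, GABRA4, GABRA5 and GABRA6, GABRA5 made up 83.4% ± 0.403 in OMO and 58.2% ± 1.17 in OMO+DOX (SD, n = 4). GABRA3 went from 11.0% ± 0.490 to 32.8% ± 1.32 and GABRA2 from 1.30% ± 0.148 to 7.39% ± 0.982 of this sum, while GABRA6 went from 4.31% ± 0.683 to 1.53% ± 0.379. GABRA5 thus still held the largest share of the 5 with DOX, with GABRA2 and GABRA3 closer to it. Over the transcript with the longest coding part the share of GABRA5 was 78.1% in OMO and 43.6% in OMO+DOX, and GABRA2, at 33.0%, came above GABRA3, at 21.7%, in OMO+DOX. The sum over the 5 genes was 17.0 ± 0.318 CPM per kilobase in OMO and 7.25 ± 0.291 in OMO+DOX. These shares are descriptions of the same counts as above and carry no test.

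**Figure D2:**
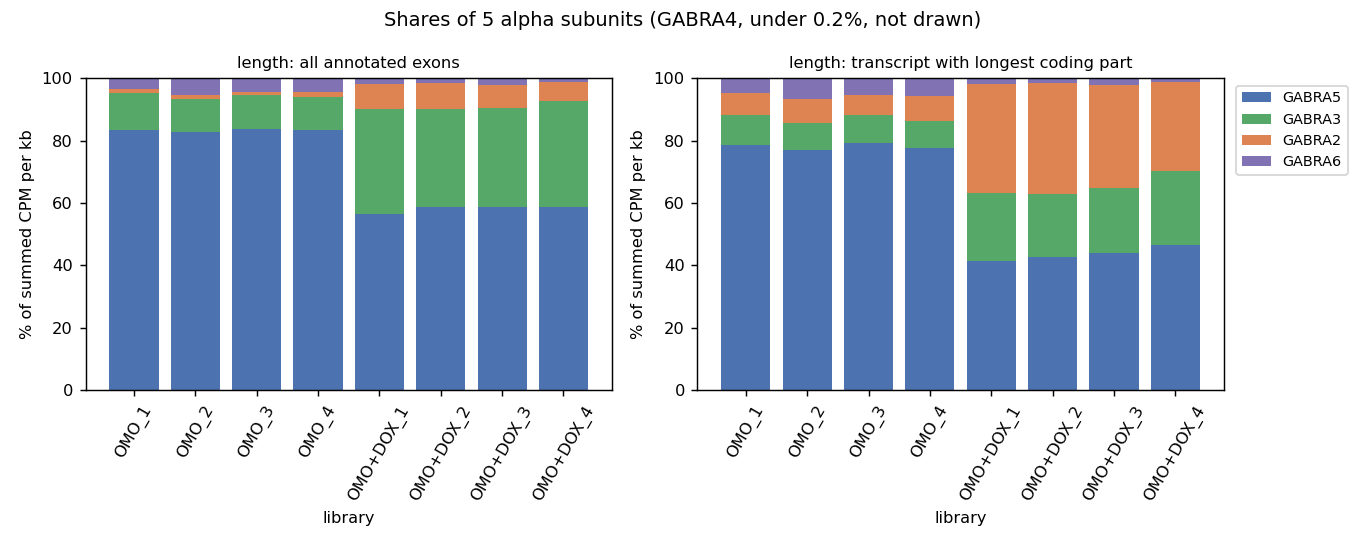
Share of each of 5 alpha subunits in their summed CPM per kilobase in each library, in percent, with gene length taken from all annotated exons (left) or from the transcript with the longest coding part (right); GABRA4 is too low to be drawn. GABRA5 takes the largest share in every library, and its share is smaller in the 4 OMO+DOX libraries.

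Of the 9 other subunit genes considered, 5 passed the expression filter, and 4 of them fell while GABRE rose. Of all genes tested, 38.1% fell and 38.5% rose, with 76.6% passing the test in either direction. GABRQ, the theta subunit, fell by 1.30 on the log2 scale, GABRP, the pi subunit, by 1.07 and GABRR2, a rho subunit, by 0.47. GABRA6, the alpha subunit of cerebellar granule neurons, was at 2.74 ± 0.415 CPM in OMO and 0.415 ± 0.103 in OMO+DOX (SD, n = 4), a log2FC of -2.70 (standard error 0.18). GABRA6 passed the filter through the untreated libraries alone, so it had to differ, and GABRP likewise had no treated library over 1 CPM. GABRE rose by a log2FC of 0.91 (standard error 0.12). Benjamini-Hochberg adjusted p-values of these 5 genes lay between 7.76e-08 and 0.00348 (edgeR quasi-likelihood F test).

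The other 4 were below the filter. GABRG1 had 0 to 5 counts in OMO and 1 or 2 in OMO+DOX, and GABRR1 had at most 1. GABRD had 0 to 3 counts in OMO and 4 to 11 in OMO+DOX, and GABRR3 had 3 to 10 and 12 to 18. Neither of these last 2 genes overlapped between the groups (exact permutation p = 0.0286, two-sided, again the lowest this design allows). This p follows from the lack of overlap alone, which held for 71.7% of all genes tested. All untreated counts of GABRD were at or under the floor. Over these 16 subunit genes, members included, 10 were tested, 5 rose and 5 fell, beside 38.5% and 38.1% of all genes tested. Their median log2FC was -0.058, beside 0.012 over all genes. The 5 that fell include GABRA6 and GABRP, which passed the filter through the untreated libraries alone. All 16 had whole-number counts in every library, so no fraction of a read was divided between them and near-identical genes.

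All 7 members lie in 4 chromosomal clusters of subunit genes, which was not used to choose them. GABRR1 and GABRR2, near each other on chromosome 6 and holding no member, were not taken as a cluster here. On chromosome 15, GABRA5 fell by 1.75 on the log2 scale, while GABRG3, next to it on the same strand, rose by 2.68. Genes on either side of the cluster moved less, with UBE3A at -0.40, ATP10A at -0.24, OCA2 at -0.61 and HERC2 at a log2FC of 0.19, the last with a Benjamini-Hochberg adjusted p of 0.0632 (edgeR quasi-likelihood F test). These neighbours were taken by position and not by their values.

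The other clusters also held genes that moved in different directions. On chromosome 4, where GABRG1, GABRA2, GABRA4 and GABRB1 span 1390676 bases, GABRA2 rose and the other subunits were too low to be tested. RAC1P2, a pseudogene between GABRA2 and GABRA4, fell by 0.71. It was at 1.29 ± 0.225 CPM in OMO and 0.795 ± 0.0766 CPM in OMO+DOX (SD, n = 4). With its treated mean under the filter of 1 CPM, the filter favoured a fall of RAC1P2. The neighbours GUF1, GNPDA2, COMMD8 and ATP10D rose there by log2FC of 0.14, 0.38, 0.28 and 1.65. On chromosome 5, GABRB2 rose while GABRA6, which overlaps it by 1982 bases without a shared exonic base, fell. PTTG1 on one side fell by 1.38, and CCNG1 and NUDCD2 on the other rose by log2FC of 0.48 and 0.47. On chromosome X, over 704411 bases, GABRE and GABRA3 rose and GABRQ fell. MAGEA10, between GABRE and GABRA3, had a log2FC of -0.13, and MAGEA3, beyond GABRQ, had one of -0.12, with Benjamini-Hochberg adjusted p-values of 0.107 and 0.0729 (edgeR quasi-likelihood F test).

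**Figure D3:**
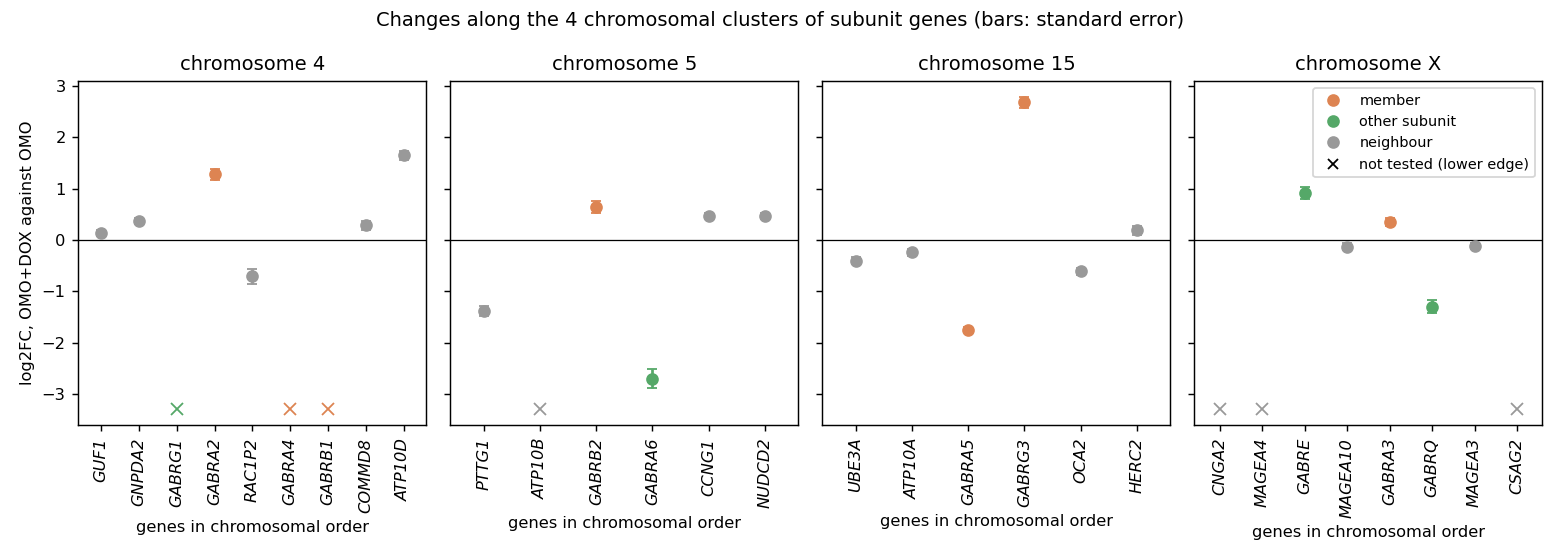
Change of subunit genes in the 4 chromosomal clusters and of genes between and beside them, as log2FC of OMO+DOX against OMO with its standard error, in chromosomal order with even spacing; crosses at the lower edge mark genes that were not tested. On chromosome 15 GABRA5 lies at -1.75 and GABRG3 at 2.68.

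GABRA5 is also 1 of 6 Group 3 genes in a published classifier of medulloblastoma subgroups, and 4 of the other 5 fell with it. Among all genes tested, 38.1% fell and 38.5% rose. IMPG2, a retinal matrix proteoglycan, went from 473 ± 65.9 to 58.7 ± 3.75 CPM, and NRL, a photoreceptor transcription factor, from 28.7 ± 2.48 to 2.44 ± 0.264 CPM (SD, n = 4). Their log2FC were -3.01 and -3.55. NPR3 and MAB21L2 fell by 2.57 and 0.65 on the log2 scale. EYS rose by a log2FC of 0.23, with a Benjamini-Hochberg adjusted p of 0.0460 (edgeR quasi-likelihood F test) that was between 0.0506 and 0.104 without any single library other than OMO replicate 2. All 6 genes were present in untreated cells. The log2FC of GABRA5 was smaller in size than those of IMPG2, NRL and NPR3, and these differences between genes were not tested.

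Of the 6 Group 4 genes of that classifier, 3 passed the filter and rose, with log2FC of 5.77 for KHDRBS2, 3.52 for UNC5D and 1.30 for RBM24, and KCNA1 had no count in any library. Among all genes tested 38.5% rose, a share that also stands beside the WNT and SHH genes below. UNC5D passed the filter through the treated libraries alone. The summed level of the 6 Group 4 genes was 7.48 to 9.43 CPM in OMO and 103 to 112 CPM in OMO+DOX. KHDRBS2, at a mean of 83.7 CPM, made up most of this sum in OMO+DOX. That of the 6 Group 3 genes, GABRA5 included, was 1885 to 2106 CPM in OMO and 710 to 740 CPM in OMO+DOX. Most of it in OMO was MAB21L2, NPR3 and IMPG2, at means of 830, 610 and 473 CPM, beside 58.9 CPM for GABRA5. Markers of the other subgroups moved as well: of 10 WNT and SHH genes 3 passed the filter and rose, TNC by a log2FC of 3.30, PDLIM3 by 3.04 and SFRP1, which passed through the treated libraries alone, by 2.96. The sum of the 10 was 16.5 to 18.3 CPM in OMO and 134 to 142 CPM in OMO+DOX, and 2 of the 10 had at most 3 counts in every library. Most of this sum was PDLIM3, at a mean of 14.2 CPM in OMO and 117 CPM in OMO+DOX. The part of these marker changes in the changes of the subunits was not tested.

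The genes that make and load GABA were at or near the floor. GAD1 and GAD2, which make GABA, had at most 6 and 9 counts in any library, and the vesicular transporter SLC32A1 had 1 count in 1 library. The 4 tested genes of this list of 8 all rose, beside 38.5% of all genes tested. ABAT and ALDH5A1, the enzymes that break GABA down, rose by log2FC of 0.93 (from 11.9 ± 1.10 to 22.6 ± 1.17 CPM) and 2.94 (from 5.24 ± 0.519 to 40.3 ± 1.05 CPM; SD, n = 4). SLC6A12 and SLC6A13, transporters of GABA and betaine or taurine, rose by 3.60 and 3.18, but passed the filter through the treated libraries alone.

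All 5 genes of the GABA-B receptor, the G protein-coupled receptor for GABA, were tested, and its obligate partners moved apart. GABBR1, which binds GABA, rose from 0.767 ± 0.147 to 3.02 ± 0.141 CPM (SD, n = 4; log2FC 1.97, standard error 0.14). GABBR2, which couples to the G protein, fell from 15.6 ± 0.781 to 1.38 ± 0.0361 CPM (SD, n = 4; log2FC -3.50, standard error 0.08). The auxiliary subunits KCTD8, KCTD12 and KCTD16 rose by log2FC of 1.96, 1.18 and 0.88. GABBR1 and KCTD16 passed the filter through the treated libraries alone.

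Of 19 genes for assembly, trafficking and clustering of GABA-A receptors, 16 were tested, 10 rose, 3 fell and 3 did not pass the test. Over all genes tested, 38.5% rose and 38.1% fell, with 76.6% passing in either direction. PLCL1, a protein that binds beta subunits and GABARAP and takes part in receptor trafficking, was at 2.18 ± 0.352 CPM in OMO and 165 ± 9.40 in OMO+DOX, a log2FC of 6.24 (standard error 0.10). HAP1, which links receptors to motor proteins, was at 0.409 ± 0.0537 and 11.9 ± 0.911 CPM (SD, n = 4), and all its untreated libraries were below the filter. NLGN2, the adhesion protein of inhibitory synapses, rose by a log2FC of 0.89, and TRAK2, a kinesin adaptor, fell by 0.97. GPHN, the scaffold gephyrin, was at 73.5 ± 3.0 and 78.0 ± 1.10 CPM, with a log2FC of 0.085 and a Benjamini-Hochberg adjusted p of 0.0936 (edgeR quasi-likelihood F test).

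Of the 5 chloride cotransporters, which set whether GABA excites or inhibits a cell, only SLC12A4 passed the test, with a rise of 1.09 on the log2 scale. SLC12A2, which carries chloride in, had a log2FC of -0.056 (adjusted p = 0.622) and SLC12A5, which carries it out in neurons, one of 0.30 (adjusted p = 0.0600, both by the edgeR quasi-likelihood F test, Benjamini-Hochberg adjusted). The calls of both depend on the setting: SLC12A5 passed with the replicate number as a block (adjusted p = 0.0395), with library size only (0.0102) and without OMO replicate 3 (0.00586), and SLC12A2 passed without OMO replicate 3 (0.0406, the same test) at a log2FC of -0.15 and was above 0 with library size only and without OMO replicate 1. The glycine receptor, a chloride channel related to the GABA-A receptor, had 2 tested genes of 5. GLRA4 fell from 37.9 ± 2.16 to 2.27 ± 0.0694 CPM and GLRB, its beta subunit, rose from 3.51 ± 0.364 to 9.29 ± 0.466 CPM (SD, n = 4). Over all 42 genes of these lists, 32 were tested, 20 rose, 5 fell and 7 did not pass, with a median log2FC of 0.39, and 7 were differentially expressed. Over all genes tested, 38.5% rose, 38.1% fell and 7.12% were differentially expressed, with 76.6% passing the test in either direction. Only this last share was close to that on these lists, where rises and differential expression were more common and falls less common. Of the 7, HAP1, SLC6A12 and SLC6A13 passed the filter through the treated libraries alone. These differences in share were not tested.

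**Figure D4:**
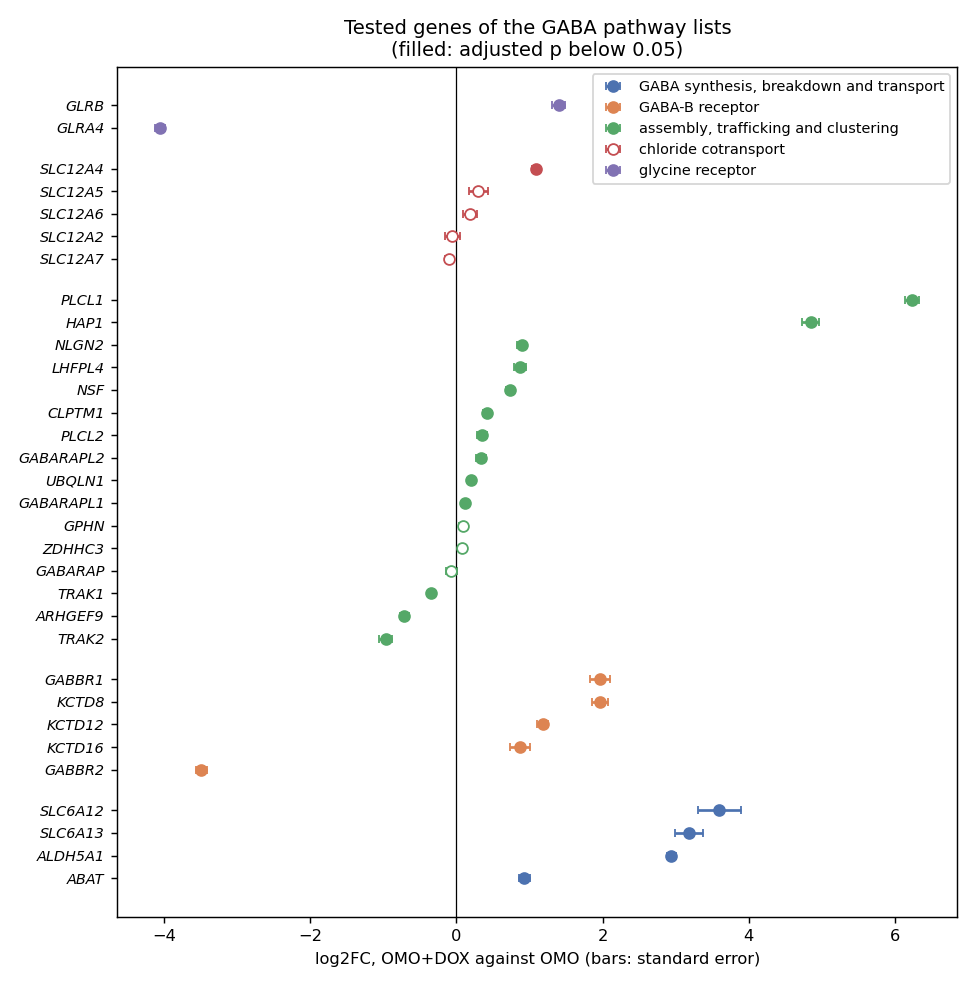
log2FC of OMO+DOX against OMO, with its standard error, of the 32 tested genes of the GABA pathway lists, grouped by role; filled points had an adjusted p below 0.05 and open points did not. GABBR1 and GABBR2 lie on opposite sides of 0, at 1.97 and -3.50, and PLCL1 is the farthest right at 6.24.

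For GABRA2, GABRA3, GABRA5 and GABRG3, the gene outside the family with the most similar log2 CPM profile over the 8 libraries was taken by Pearson's r. ADGRL2, an adhesion receptor, was most like GABRA2 (r = 0.999), and MFSD12, a lysosomal transporter, was most like GABRA3 (r = 0.989). CACNG2, the AMPA receptor partner stargazin, was most like GABRA5 (r = 0.999), and ARHGAP31 was most like GABRG3 (r = 0.9997). The libraries fall into an untreated and a treated group, and r spans the difference between them. CACNG2 itself fell from 18.8 to 1.48 mean CPM, and ARHGAP31 rose from 2.27 to 23.0 mean CPM.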

How the data were processed

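Reads had been cleaned with Trim Galore, mapped to GRCh38 with STAR under the GENCODE annotation and counted with RSEM by the authors, who deposited expected counts per gene for each library without normalization. RSEM can split a read among the genes it matches. Whether counting used strand is not given in the sources used here. From these files, expected counts were rounded to whole numbers, and genes that exceeded 1 CPM in 4 or more of the 8 libraries were compared between 4 OMO and 4 OMO+DOX libraries by the quasi-likelihood F test of edgeR 4.0.16 (R 4.3.3) with TMM normalization and no covariate, and p-values were Benjamini-Hochberg adjusted over all 15222 genes tested. CPM use TMM-scaled library sizes. The standard error given is the absolute log2FC over the square root of the F statistic. Members below the filter were compared with two-sided exact permutation tests of CPM. Names, positions and lengths came from GENCODE 29 (GRCh38), which holds 58561 of the 60668 identifiers. For the likeness of profiles, 0.5 was added to CPM before taking log2.

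Named genes were the subunit genes, GAD1, GAD2, GPHN, SLC12A2, SLC12A5, GABBR1, GABBR2 and GLRB, up to 4 others per list with the largest changes without overlap, genes in or next to the clusters, the most similar gene of each member, and MYC, CAD and NCL. Other names (SLC32A1, KCNA1, COL1A1, COL3A1, AQP4, AIF1, MBP, CLDN5, MOG, HBB) were chosen after their values were seen. EYS, NPR3, MAB21L2 and RBM24 were also named outside this rule. The members and lists were chosen with earlier results of these data known. Alternatives were DESeq2's size factors, library size only, DESeq2 1.42.0, the likelihood ratio test, other filters, the replicate number as a block, another gene length and each replicate left out. The scripts were tested on simulated data. Summaries were made in Python 3.11.15 (pandas 2.3.3, numpy 2.4.6, scipy 1.17.1). Transcript-level values and protein sequences were not analysed here, and some genes are not reported here.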

Additional observations from a re-analysis of the deposited data

Results flagged for a closer look

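Within a group of 4 libraries, a library was singled out when its gap to the nearest other library took up more of the range of the group than Dixon's critical value at 0.05 allows. Of 32 groups over the 16 subunit genes, 2 met it. For continuous values chance marks about 1 in 20, or 1.6 of 32. This rate need not hold for groups of few counts, where 1 count in 1 library can meet the rule. GABRA2 in OMO+DOX replicate 4 was low, at 5.42 CPM beside 6.57, 6.75 and 6.76 CPM in the other treated libraries. GABRR1 in OMO+DOX replicate 4 was at 0.0220 CPM, from 1 count, beside 0 in the others.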

How the results depend on the processing

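Under all 15 alternatives each of the 5 tested members kept its direction and an adjusted p below 0.05, and GABRG3 stayed differentially expressed. With any single replicate left out, log2FC lay between 1.203 and 1.35 for GABRA2, 0.31 and 0.39 for GABRA3, -1.77 and -1.72 for GABRA5, 0.52 (without OMO replicate 3) and 0.71 for GABRB2, and 2.58 and 2.74 for GABRG3. With library size in place of TMM, the median log2FC of all genes moved up by 0.13, calls split into 7157 higher and 4715 lower in place of 5868 and 5793, and SLC12A2 turned to 0.068. SLC12A2 was also at 0.023 without OMO replicate 1, and -0.15 with an adjusted p of 0.0406 (edgeR quasi-likelihood test) without OMO replicate 3. SLC12A5 passed with library size only, with the replicate block and without OMO replicate 3, at adjusted p of 0.0102, 0.0395 and 0.00586, and GPHN with library size only, at 0.00178 (the same test). Without a filter on low counts, 2 members were differentially expressed, since GABRB1 entered with a log2FC of 2.04 (standard error 0.45, adjusted p = 0.000371, edgeR quasi-likelihood test), and 2097 genes were so over all genes. With the filter raised to 5 or more libraries, 562 genes were, and 3 of the other subunits had an adjusted p below 0.05 in place of 5, since fewer genes were tested. For GABRB1, whose log2 ratio of mean CPM was 2.06, leaving out a replicate gave 1.87 to 2.62 with p = 0.0571 in the two-sided exact permutation test, the smallest p that 3 libraries against 4 allow, so these p-values say nothing of stability. For GABRA4 the difference in mean CPM stayed above 0, with p up to 0.514 in the same test. That measure and the alternatives for genes other than members were added after the data had been seen. Over the transcript with the longest coding part, the share of GABRA5 was 78.1% in OMO and 43.6% in OMO+DOX. Libraries of the same replicate number did not deviate together, with r across genes from -0.176 to 0.241, so the numbers give no pairing, and not every library correlated best with its own number. With the replicate number as a block the members' log2FC were 1.28, 0.35, -1.75, 0.65 and 2.68 in the order GABRA2, GABRA3, GABRA5, GABRB2 and GABRG3, with 5 members, 5 other subunits, 26 genes of the pathway lists and 11805 genes in all past an adjusted p of 0.05. Depth limits GABRA4 and GABRB1 among the members, with counts at or under the floor of 3 in some libraries.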
